A study of Mus musculus with 6 samples.

Results

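The translation initiation factor genes of mouse 3T3-L1 cells were compared between cells with and without flavonoids of Smilax glabra, a climbing plant used in herbal medicine. Members were taken by symbol, as every row of the deposited table that starts with Eif and a digit from 1 to 6, leaving out the kinases named Eif2ak. This gave 62 of the 46095 rows, of which 53 reached a mean of 1 FPKM over the 6 samples and were tested. FPKM is the number of sequenced fragments per length of gene model and per sequenced library size. Levels of different genes can thus be set side by side only within the limits of the length slopes of single libraries given below. They also depend on the gene lengths behind the table, whose annotation is not given, as do ratios and rankings between genes. All samples are cells of 3T3-L1, a mouse embryo fibroblast line able to turn into fat cells, labelled adipocytes and collected 8 days after differentiation. The control group is 3 untreated samples (replicates 1 to 3). The other group is 3 samples given Smilax glabra flavonoids at 0.125 μg/mL. The sources used here do not give how long the flavonoids were present, or whether replicates are separate cultures. The p-values therefore rest on a spread between libraries that may be technical only.

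Initiation brings the first methionine tRNA, the small ribosomal subunit and a messenger RNA together at a start codon. The factor eIF2 carries the tRNA with GTP and is recharged by eIF2B, a step that stress kinases block by phosphorylating eIF2. The large complex eIF3 holds the small subunit, and eIF1, eIF1A and eIF5 guard the choice of the start codon. The cap-binding protein eIF4E, the scaffold eIF4G and the helicase eIF4A recruit messages by their cap, and 4E-binding proteins, which mTOR switches off, keep eIF4E from the scaffold. In fat cells this cap step is a classical target of insulin.

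The libraries held 21952064 to 26355863 fragments, worked back from the steps between FPKM values. Tested members were seen by 23 to 43057 fragments in a library. Of 10 genes of mature fat cells, 6 (Adipoq, Plin1, Cd36, Slc2a4, Lep and Cidec) stayed below 1 FPKM in all 6 libraries. Fabp4, Pparg, Cebpa and Lpl were present, so part of the listed markers goes with the label adipocytes and part does not. The summed level of 7 preadipocyte and fibroblast markers was 2596 to 3045 FPKM in untreated and 2033 to 2292 FPKM in treated samples. Of these markers, Thy1 and Lum were lower with flavonoids (limma adjusted p = 0.0118 and 0.0018), and the rest were not called. The part of these differences in the results was not tested. Of the macrophage list, 3 of 4 listed genes stayed below 1 FPKM in all 6 libraries, with Ptprc at 0, as did all 3 endothelial and all 4 skeletal muscle genes. The deviation from the mean of all libraries had slopes per doubling of gene length, on the log2 scale, of -0.116 in untreated replicate 1 and 0.159 in untreated replicate 3, against 0.0169 in untreated replicate 2 and -0.0303 to -0.0123 in the treated samples. In bulk RNA, fewer cells of a type and less RNA per cell cannot be told apart.

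Of the 53 tested initiation factor genes, 3 were higher with flavonoids and 0 were lower (limma, log2(FPKM + 1) scale, with p adjusted by Benjamini-Hochberg over all 11464 tested genes and a threshold of 0.05). The 3 were Eif4ebp1, which encodes an inhibitor of the cap-binding protein, Eif3c, a core subunit of eIF3, and Eif1ad, an eIF1A-like protein. Over all tested genes 4.86% were called higher, 5.13% lower and 9.99% in either direction, so the share of members called, 5.66%, was not above the general one. At an unadjusted p under 0.05 there were 13 members, 4 of them with negative fitted changes, against 3105 of all tested genes, and voom weights on whole fragments called Eif4e3 lower besides the same 3. The fitted change was positive for 35 and negative for 18 members, with a median of 0.093 on the log2 scale against -0.022 over all tested genes. In 12 members every treated value lay above every untreated value, and in 3 every treated value lay below, where 17% and 17.3% of all tested genes separated in this way. When the smooth length trend of every library was taken out, 12 of the 53 members were called higher and 2 lower. This was 26.4% of the members in either direction, against 21.9% of all tested genes (12% higher and 9.87% lower).

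**Figure D1:**
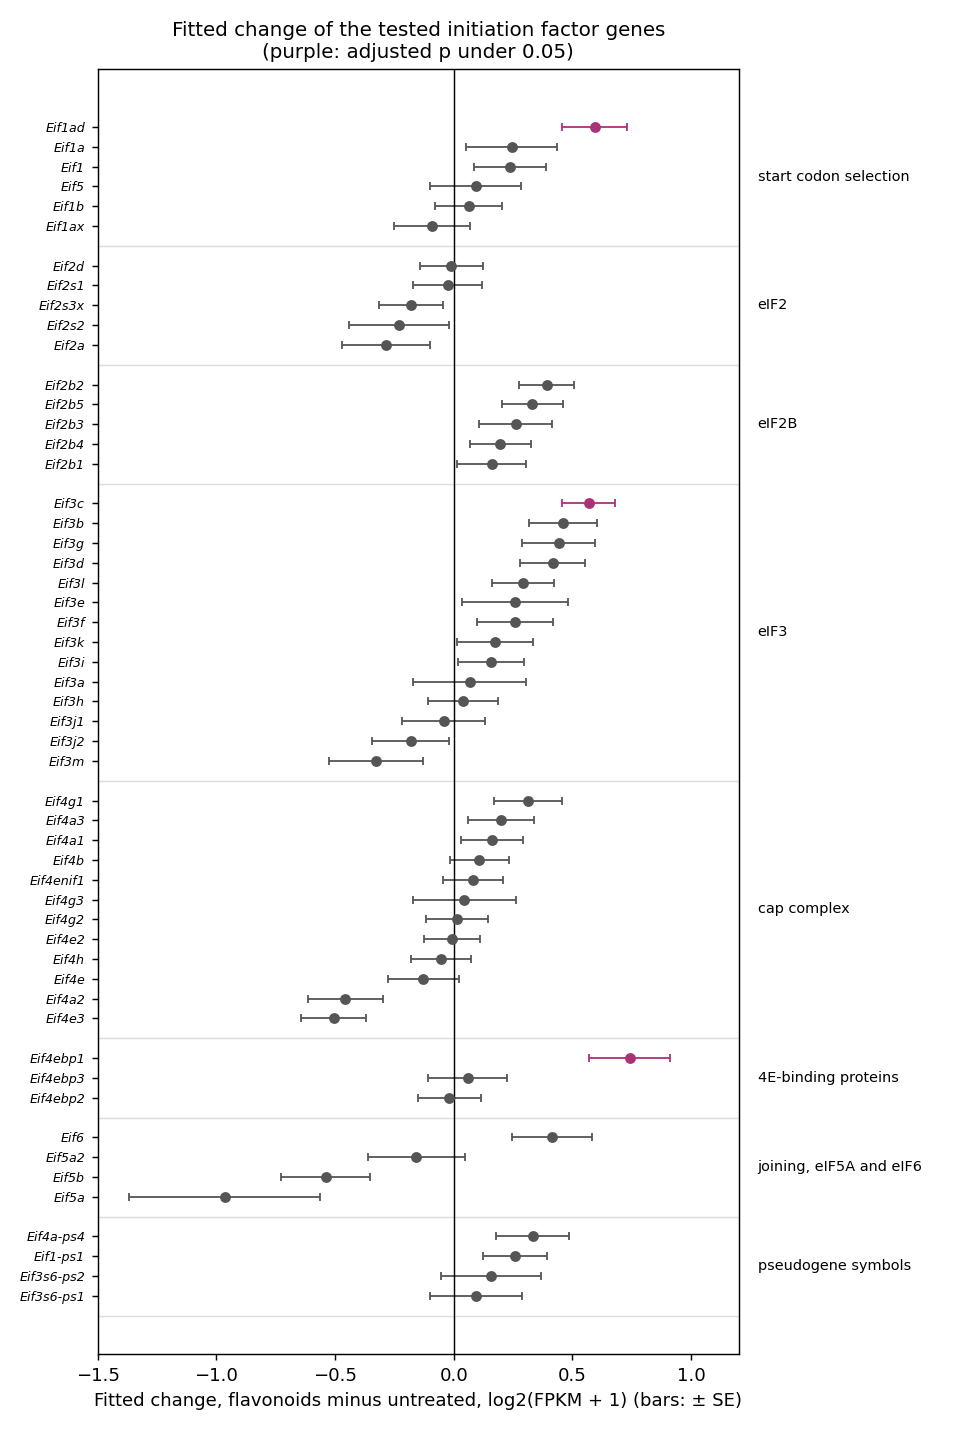
Fitted change of each of the 53 tested members (x axis, flavonoids minus untreated on the log2(FPKM + 1) scale, bars ± SE, 3 samples per group), ordered by role. Only Eif1ad, Eif3c and Eif4ebp1, in purple, passed the adjusted threshold, and Eif5a has the widest error bar.

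Among the 4E-binding proteins, Eif4ebp1 was the most abundant message and the member of the whole family with the largest positive fitted change. Eif4ebp1 (chromosome 8, 27260329 to 27276674, plus strand, GRCm38, as are all positions given) measured 407, 329 and 263 FPKM in untreated replicates 1, 2 and 3 and 572, 530 and 546 FPKM in the treated ones. All 3 treated samples lay above all untreated samples, and the untreated ones were spread more widely. Behind these values stood 8822, 7553 and 6529 fragments in untreated and 14039, 13782 and 13266 in treated libraries. Eif4ebp1 rose 1.65-fold, from 333 ± 71.9 to 549 ± 21.3 FPKM (SD, n = 3 each), a fitted log2 change of 0.74 with SE 0.17 and a limma adjusted p of 0.0303. The limma adjusted p of Eif4ebp1 was 0.14 without untreated replicate 2, 0.128 without flavonoids replicate 1, 0.0963 without flavonoids replicate 2 and 0.0969 without flavonoids replicate 3, and 0.097 with no filter on low genes. Leaving out single libraries moved the fitted change of Eif4ebp1 between 0.58 and 0.90.

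The 2 relatives of Eif4ebp1 did not pass the test. Eif4ebp2, a 4E-binding protein known from neurons, measured 30.3, 35.6 and 39.6 FPKM in untreated and 32.1, 33.3 and 38.3 FPKM in treated samples (limma adjusted p = 0.946). Eif4ebp3, another inhibitor of the same kind, measured 5.74, 4.38 and 6.64 FPKM against 6.14, 6.32 and 4.98 FPKM (limma adjusted p = 0.855). For both genes the groups overlapped. The GENCODE annotation places another gene model on the same strand over 67.3% of the exon bases of Eif4ebp3, so its fragments are uncertain. Eif4ebp1 held 91.9%, 89.2% and 85.1% of the summed FPKM of the 3 genes in untreated samples and 93.7%, 93.0% and 92.6% in treated samples. Set against the message of its partner Eif4e, Eif4ebp1 stood at 36.45, 28.54 and 28.73 times the FPKM in untreated samples and at 54.9, 50.01 and 68.55 times in treated samples, with no overlap. The implied gene lengths are 987 bp for Eif4ebp1, 5773 bp for Eif4ebp2 and 6759 bp for Eif4e. The GENCODE annotation lists 2196, 5784 and 6008 exon bases for these genes, so the shares and ratios depend on the gene models counted. The part of the library length slopes in these shares and ratios was not tested.

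**Figure D2:**
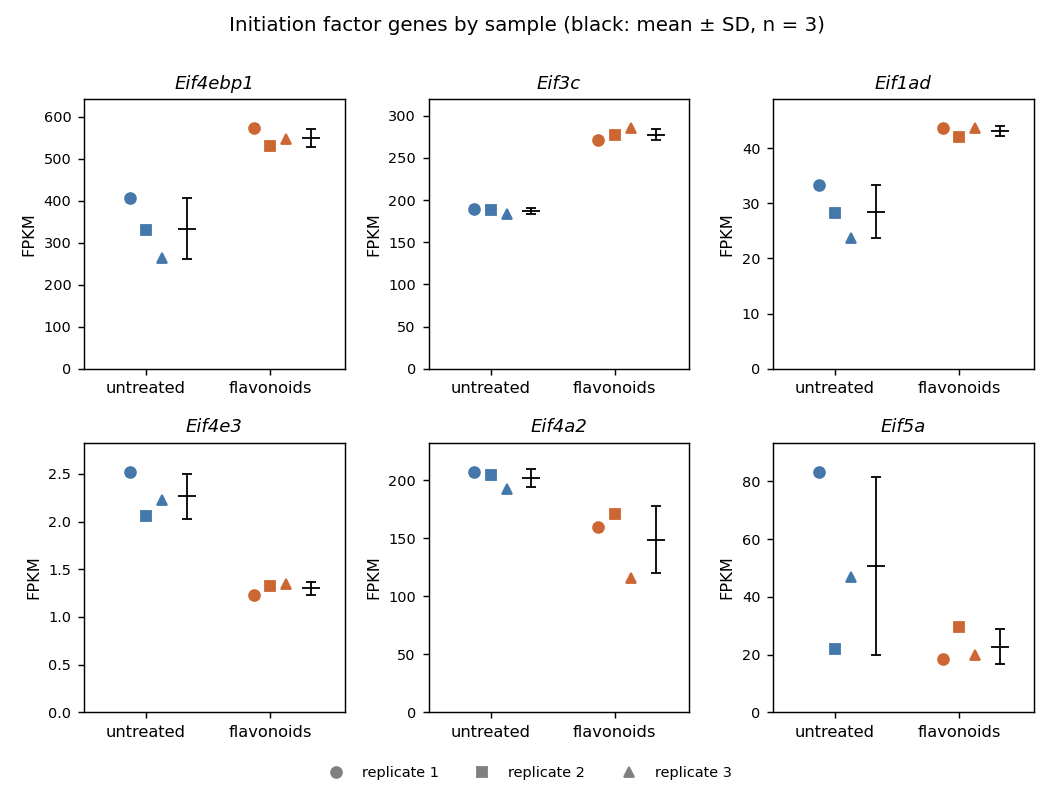
FPKM of 6 members by sample (y axes start at 0, marker shape gives the replicate, black marks the mean ± SD of 3 samples). Eif4ebp1, Eif3c and Eif1ad are higher in every treated sample, Eif4e3 and Eif4a2 lie lower in every treated sample without passing the test, and Eif5a scatters from 22.0 to 83.3 FPKM among untreated samples alone.

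None of the 12 tested genes of the cap complex and its partners passed the test. The closest was Eif4e3, an eIF4E relative that binds the cap in an unusual way, at 2.52, 2.06 and 2.22 FPKM in untreated and 1.22, 1.32 and 1.35 FPKM in treated samples. All treated values of Eif4e3 lay below the untreated ones, from 140, 121 and 141 against 77, 88 and 84 fragments (log2 change -0.51, SE 0.14, limma adjusted p = 0.0507). It passed with no variance trend (limma adjusted p = 0.0338), with robust variances (0.0493), with the length trend removed (0.0197) and with voom (0.0372). The annotation places another gene model on the same strand over 14.8% of the exon bases of Eif4e3, so its fragments are uncertain. The cap-binding protein gene Eif4e itself measured 11.2, 11.5 and 9.17 FPKM against 10.4, 10.6 and 7.96 FPKM (limma adjusted p = 0.624). Eif4e2, which represses messages by occupying their cap, was the most abundant of the 3 at 45.5, 40.9 and 36.8 against 39.9, 39.1 and 43.2 FPKM. For Eif4e and Eif4e2 the groups overlapped.

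The helicase genes differed in where their treated values lay. Eif4a2 measured 207, 205 and 193 FPKM in untreated and 159.5, 171 and 116 FPKM in treated samples, with flavonoids replicate 3 the lowest of all (log2 change -0.46, SE 0.16, limma adjusted p = 0.105). It did not pass the test, although the groups did not overlap, and passed with quantile normalization and with the length trend removed. Its close copy Eif4a1 measured 87.8, 79.2 and 66.5 FPKM against 89.7, 88.0 and 82.1 FPKM (limma adjusted p = 0.469). Eif4a2 made up 70.24%, 72.13% and 74.35% of the summed FPKM of this pair in untreated samples and 64.01%, 65.97% and 58.52% in treated samples. The 2 genes are near-identical in parts, and how their shared reads were counted is not given in the sources used here. Eif4a3, a helicase of the exon junction complex that marks spliced messages, measured 96.9, 83.6 and 68.3 FPKM against 92.3, 94.8 and 95.9 FPKM.

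Of the scaffolds, Eif4g1 had the highest level, at 158, 178 and 207 FPKM in untreated and 222, 204 and 249 FPKM in treated samples (log2 change 0.31, SE 0.14, limma adjusted p = 0.199). Treated replicate 2 lay just below untreated replicate 3, so the groups overlapped. Eif4g1 passed only with the length trend removed, with or without a replicate block (lowest limma adjusted p = 0.0196). Eif4g2, a scaffold without the eIF4E site, measured 96.2, 110.1 and 109 FPKM against 113, 115 and 91.4 FPKM. Eif4g3 was rare at 1.09, 1.88 and 2.81 FPKM against 2.20, 1.86 and 1.74 FPKM, its untreated values spreading more than its treated ones. The helicase cofactors Eif4b and Eif4h were abundant in every sample, with Eif4b at 397 ± 20.8 and 428 ± 20.9 FPKM and Eif4h at 312 ± 28.5 and 299.7 ± 8.08 FPKM. Eif4enif1, which carries eIF4E into the nucleus, measured 16.2 ± 2.03 and 17.1 ± 0.998 FPKM. Eif4e1b, an egg-cell form of eIF4E, is listed at 0 in all libraries.

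The eIF3 complex had 1 of 14 genes called. Eif3c (chromosome 7, 126546455 to 126566411, minus strand), part of the core that binds the small subunit, measured 190.0, 188 and 183 FPKM in untreated and 271, 277 and 285 FPKM in treated samples. The spread within each group was small beside the gap, from 12096 to 13340 fragments in untreated and 19574 to 21147 in treated libraries. Eif3c rose 1.49-fold, from 187 ± 3.44 to 278 ± 6.87 FPKM (SD, n = 3 each), a fitted log2 change of 0.57 with SE 0.11 and a limma adjusted p of 0.0165. The fitted change of Eif3c ran from 0.48 to 0.59 over 19 other settings. Its limma adjusted p was 0.114 without untreated replicate 2, 0.0843 without flavonoids replicate 1, 0.0885 without flavonoids replicate 2 and 0.0535 without flavonoids replicate 3. Eif3c made up 7.267%, 8.159% and 9.341% of the summed FPKM of the 14 eIF3 genes in untreated samples and 10.25%, 10.29% and 10.76% in treated samples. The untreated libraries differ in their length slope, and its part in this share was not tested.

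Another 4 subunit genes had every treated value above every untreated value but did not pass the test. Eif3b, the scaffold partner of Eif3c's product, measured 116, 113 and 95.6 FPKM against 137, 137 and 175 FPKM (limma adjusted p = 0.0786). Eif3d, a subunit that can bind caps itself, measured 143, 123 and 110.1 against 158, 159 and 185 FPKM (limma adjusted p = 0.0913). An antisense gene model on the opposite strand overlaps 43.3% of the GENCODE exon bases of Eif3d, and reads there cannot be told apart without strand. GENCODE lists 4968 exon bases for Eif3d against an implied length of 2411 bp, so the share of the counted model may differ. Eif3g, an RNA-binding subunit, measured 156, 128 and 105 against 168, 171 and 184 FPKM (limma adjusted p = 0.109), and Eif3l 127, 126 and 104 against 135, 143 and 158 FPKM (0.186). Flavonoids replicate 3 was the highest sample for all 4. With the length trend removed, Eif3b, Eif3d, Eif3g and Eif3l each passed, with limma adjusted p of 0.0186, 0.0155, 0.00869 and 0.0467. Eif3d and Eif3g also passed without untreated replicate 1, at 0.0327 and 0.023.

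The other eIF3 genes had overlapping groups. Eif3m had the lowest fitted change of the complex, at 197, 172 and 122 FPKM in untreated and 148, 133 and 105 FPKM in treated samples (log2 change -0.33, SE 0.20, limma adjusted p = 0.327). Eif3m was called lower only with the length trend removed and a replicate block (limma adjusted p = 0.0308). Flavonoids replicate 3 stood apart from its 2 partners in Eif3a, the largest subunit, at 58.2 against 107 and 101 FPKM, where the untreated samples had 73.0, 73.2 and 103 FPKM. The same library was low in Eif3e, at 201 against 329 and 321 FPKM, with 279.5, 239 and 185 FPKM untreated. Levels within the complex spanned a wide range, from Eif3h at 478 ± 67.0 and 487 ± 18.9 FPKM to the loosely bound subunit's genes Eif3j2 at 9.03 ± 0.301 and 7.97 ± 1.78 FPKM and Eif3j1 at 1.05 ± 0.204 and 1.01 ± 0.325 FPKM. Eif3f at 309 ± 56.8 and 366 ± 30.4 FPKM, Eif3k at 291 ± 57.8 and 324 ± 4.92 FPKM and Eif3i at 54.0 ± 9.13 and 59.8 ± 0.718 FPKM had smaller spread among treated than untreated samples. Eif3j1 and Eif3j2 are close copies whose reads cannot be assigned with certainty.

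**Figure D3:**
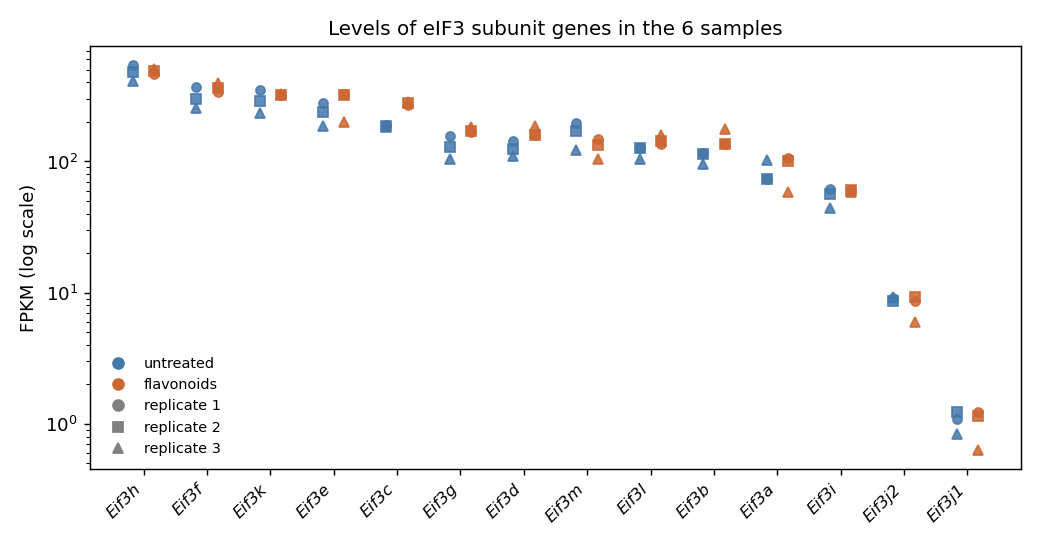
FPKM of the 14 eIF3 genes in each sample (log axis, blue untreated, orange flavonoids, marker shape gives the replicate), ordered by mean level. Most subunits lie within an order of magnitude, Eif3j2 and Eif3j1 lie far below, and Eif3c separates the groups with little spread within them.

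Among the genes grouped under start codon selection, Eif1ad was called and the other 5 were not. Eif1ad was placed here as an eIF1A-like protein, and a part in start codon choice is not shown by these data. Eif1ad (chromosome 19, 5366741 to 5371526, plus strand) measured 33.3, 28.3 and 23.8 FPKM in untreated and 43.6, 42.0 and 43.6 FPKM in treated samples. The treated values lay close together and above all untreated ones, from 2666 to 2748 against 1482 to 1817 fragments. Eif1ad rose 1.51-fold, from 28.4 ± 4.78 to 43.0 ± 0.924 FPKM (SD, n = 3 each), a fitted log2 change of 0.59 with SE 0.14 and a limma adjusted p of 0.0289. The limma adjusted p of Eif1ad was 0.133 without untreated replicate 2, 0.117 without flavonoids replicate 1, 0.0937 without flavonoids replicate 2 and 0.0888 without flavonoids replicate 3, and 0.0712 with no filter on low genes. On the opposite strand, Banf1 overlaps 15.3% of the exon bases of Eif1ad, and reads there cannot be told apart without strand. Banf1 measured 144, 120.5 and 91.6 FPKM in untreated and 159.6, 156 and 154 FPKM in treated samples (limma adjusted p = 0.142), and its part in the Eif1ad result was not tested.

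The start site guardian Eif1 was abundant at 472, 426 and 340.2 FPKM in untreated and 480.0, 476 and 491 FPKM in treated samples, with no overlap but without passing the test (limma adjusted p = 0.356). The 2 copies of eIF1A differed in level. Eif1ax measured 109, 94.2 and 72.6 against 87.9, 90.3 and 77.0 FPKM, and Eif1a 26.9, 28.2 and 23.6 against 37.2, 36.3 and 22.3 FPKM, both with overlapping groups. Eif1b measured 45.8 ± 8.04 and 47.3 ± 0.713 FPKM. Eif5, which triggers GTP hydrolysis by eIF2, measured 25.3 ± 2.63 and 27.6 ± 7.09 FPKM.

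Promoter sequence was taken from the RefSeq table for GRCm38.p6, which held 40 of the 62 members, and the 250 bases before each start were searched on both strands for 2 motifs. CACGTG is the E-box, bound by MYC among other factors, and TGATGNAA is the core of the C/EBP-ATF element. Of the 3 called genes, Eif3c and Eif1ad had an entry, and neither stretch holds a match, which says only that these letters are not in this window. For Eif3c the part of the stretch outside annotated exons is shown because the gene carries a call (chr7:126566412-126566616, minus strand). All sequences run 5′ to 3′ on the strand of their gene.
Eif3c: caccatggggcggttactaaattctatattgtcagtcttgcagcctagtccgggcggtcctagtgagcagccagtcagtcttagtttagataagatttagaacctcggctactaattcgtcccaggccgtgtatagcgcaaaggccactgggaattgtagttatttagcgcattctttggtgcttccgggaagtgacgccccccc
All 250 bases of the Eif1ad stretch lie in annotated exons, so its letters are not shown. The E-boxes of the cap complex genes are shown with 10 bases on each side, the motif in capitals, named by the position of its first base from the start, because this group holds the cap-binding protein. These genes were chosen after the matches were seen.
Eif4a1 at -189 (chr11:69672597-69672622, minus strand): atcgcctccgCACGTGtaaaggtgct
Eif4e at -228 (chr3:138527030-138527055, plus strand): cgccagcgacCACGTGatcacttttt
Eif4e at -64 (chr3:138527194-138527219, plus strand): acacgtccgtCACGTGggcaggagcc
Eif4g1 at -54 (chr16:20672663-20672688, plus strand): cagtgggtgtCACGTGatggggcgga
Eif4h at -96 (chr5:134639490-134639515, minus strand): gccgccgcacCACGTGggccgcagag
Eif4e has 2 RefSeq starts, and its matches belong to a single start. Over all 32851 promoters of this length, 6.02% hold CACGTG and 3.45% hold TGATGNAA. Counted by gene, CACGTG was found for 9 of 38 tested members with an entry (23.7%) and for 820 of 7985 tested genes (10.3%), and TGATGNAA for 1 member (2.63%) and 170 tested genes (2.13%). The 9 were Eif1b, Eif3f, Eif3k, Eif4a1, Eif4e, Eif4g1, Eif4h, Eif5a and Eif5a2. None of these was called, and their fitted log2 changes ran from -0.97 for Eif5a to 0.31 for Eif4g1. The genes compared differ in base composition and some have several starts, so the shares are a description.

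All 5 tested genes of the eIF2 group had negative fitted changes from -0.28 to -0.01, and none passed the test (lowest limma adjusted p = 0.367). The shared direction did not hold throughout: without flavonoids replicate 3 the fitted change was 0.10 for Eif2s1 and 0.04 for Eif2s2, and with the length trend removed it was 0.12 for Eif2d and 0.01 for Eif2s1. Eif2s1, which encodes the alpha subunit that stress kinases phosphorylate, measured 26.0, 23.9 and 20.6 FPKM in untreated and 25.0, 25.2 and 19.2 FPKM in treated samples. The beta subunit gene Eif2s2 measured 69.3, 70.2 and 64.7 against 70.0, 69.8 and 39.4 FPKM, with flavonoids replicate 3 alone low. The gamma subunit gene Eif2s3x measured 5.60, 6.61 and 6.85 against 5.75, 5.82 and 4.89 FPKM, and its Y-linked copy Eif2s3y is listed at 0 in all libraries. Eif2a, an alternative initiation factor, had the lowest fitted change of the group at 17.4, 16.1 and 17.1 against 15.7, 16.5 and 9.74 FPKM. Eif2d, which can also deliver tRNA to the ribosome, measured 6.90 ± 0.825 and 6.82 ± 0.495 FPKM. The groups overlapped for all 5.

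The 5 genes of the exchange factor eIF2B all had positive fitted changes, from 0.16 to 0.39 on the log2 scale, and none passed the test. Eif2b2, a regulatory subunit gene, measured 35.4, 33.3 and 30.6 FPKM in untreated and 41.7, 41.7 and 47.8 FPKM in treated samples, without overlap (log2 change 0.39, SE 0.12, limma adjusted p = 0.0678). It passed without untreated replicate 1 (limma adjusted p = 0.044) and with the length trend removed (0.0202). Eif2b5, which encodes the catalytic subunit, measured 62.0, 57.4 and 47.4 against 67.7, 67.2 and 74.3 FPKM, also without overlap (limma adjusted p = 0.142). Eif2b5 passed only with the length trend removed (limma adjusted p = 0.0382). Eif2b1 had the smallest change of the 5, at 22.4, 21.8 and 15.9 against 22.1, 22.8 and 21.8 FPKM. Eif2b4 measured 19.3 ± 2.54 and 22.2 ± 1.59 FPKM, and Eif2b3, at 2.26 ± 0.425 and 2.89 ± 0.377 FPKM, was the rarest subunit message. The summed FPKM of the 5 genes was 5.554, 5.619 and 5.439 times that of Eif2s1 in untreated samples and 6.247, 6.173 and 8.87 times in treated samples. In flavonoids replicate 3, which had the ratio of 8.87, Eif2s1 was low at 19.2 against 25.0 and 25.2 FPKM. The part of this library and of the length slopes in the ratio was not tested.

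Of the late factors none passed the test. Eif5b, the GTPase that joins the large subunit, measured 11.7, 11.1 and 15.5 FPKM in untreated and 9.30, 9.90 and 6.37 FPKM in treated samples, all lower (log2 change -0.54, SE 0.19, limma adjusted p = 0.105). Eif6, which keeps free large subunits from joining too early, measured 107, 85.1 and 66.7 against 110.4, 108 and 121 FPKM (log2 change 0.42, SE 0.17, limma adjusted p = 0.155). For Eif5b and Eif6 the groups did not overlap, in opposite directions. Eif6 passed with the length trend removed, with or without a replicate block, and without untreated replicate 1 (lowest limma adjusted p = 0.0214). Rev1, on the opposite strand, overlaps 16.8% of the exon bases of Eif5b, and reads there cannot be told apart without strand. Eif5a, the factor that carries the modified residue hypusine, had the lowest fitted change of all members, at 83.3, 22.0 and 46.9 FPKM in untreated and 18.4, 29.7 and 20.0 FPKM in treated samples (log2 change -0.97, SE 0.40, limma adjusted p = 0.165). Untreated replicate 2 lay inside the treated range, and 2659, 745 and 1712 fragments stood behind the untreated values. The fitted change of Eif5a was -0.52 without untreated replicate 1 and -1.45 without untreated replicate 2, its limma adjusted p ran from 0.0529 to 0.371 over 19 settings, and its near-identical copies make the assignment of reads uncertain. The copy Eif5a2 measured 0.898, 1.68 and 1.89 FPKM against 1.42, 1.41 and 0.808 FPKM.

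Pseudogene symbols made up 10 of the 62 members, and 4 of them were tested. Eif4a-ps4, annotated as a processed pseudogene, reached 53.8, 48.4 and 37.0 FPKM in untreated and 62.9, 58.7 and 52.8 FPKM in treated samples (limma adjusted p = 0.203). It passed only with the length trend removed, without and with a replicate block (limma adjusted p = 0.0455 and 0.0439). For comparison, Eif4a1 stood at 77.8 ± 10.7 and 86.6 ± 3.996 FPKM, and reads of the parent gene cannot be told apart from those of the copy. Eif3s6-ps2, named as a copy of Eif3e, measured 20.0 ± 3.66 and 22.7 ± 5.90 FPKM, and Eif1-ps1 4.26 ± 0.498 and 5.28 ± 0.443 FPKM. Eif3s6-ps1 measured 1.998 ± 0.618 and 2.19 ± 0.564 FPKM. Of the 9 members that were not tested, 6 carry pseudogene symbols, and Eif4e1b, Eif2s3y and Eif2c5, the last annotated as a lincRNA, are listed at 0 in all libraries.

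The members varied between replicates in a pattern that gene length followed in the untreated samples. Untreated replicate 1 was the highest untreated sample for 36 of the 53 and untreated replicate 3 the lowest for 36, against 41.9% and 44.9% of all tested genes. Of the 22 members whose implied gene model was under 2000 bp, 21 were lower in untreated replicate 3 than in replicate 1, and of the 31 longer ones 19 were. Across the 53 members, the difference between these 2 libraries had a Spearman rho of 0.767 with length, where members share the libraries and are not independent. The median SD within a group on the log2 scale was 0.195 in untreated and 0.119 in treated samples for the members, and 0.195 and 0.129 for all tested genes. Among treated samples, replicate 3 was the lowest for 52.8% of the members and 46.7% of all tested genes, and the highest for 43.4% and 37.7%. Replicate 3 lay at least 1.3-fold below the mean of the others on the log2(FPKM + 1) scale in 13 members and at least 1.3-fold above in 0. This 1.3-fold count was not made over all tested genes. Eif2a, Eif2s2, Eif3a and Eif3e, described above, were among the 13.

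**Figure D4:**
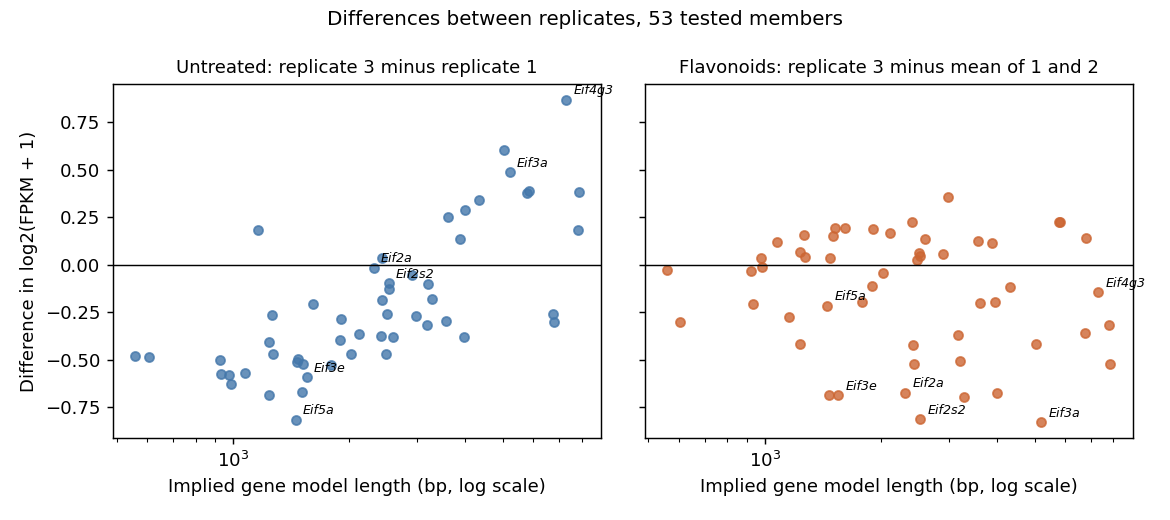
Difference between replicates in log2(FPKM + 1) for the 53 tested members against implied gene model length in bp (log axis). In untreated samples (blue) replicate 3 minus replicate 1 lies mostly below 0 for short and mostly above 0 for the longest models (Spearman rho 0.767), and in treated samples (orange) replicate 3 lies well below the other 2 for a group of members that includes Eif2s2, Eif3a, Eif3e and Eif2a.

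Around the initiation factors, 6 lists of other translation genes and regulators were read from the same fit, with 9.99% of all tested genes called in either direction. The list of eIF2 kinases and phosphatase parts had 1 of 9 genes higher and 1 lower. Ppp1r15a, the stress-induced partner that brings phosphatase to eIF2, measured 113, 105 and 111 FPKM in untreated and 177, 171 and 191 FPKM in treated samples and rose 1.64-fold (log2 change 0.71, SE 0.11, limma adjusted p = 0.00833). It lost the call without untreated replicate 2 (0.0773) or flavonoids replicate 1 (0.0553). Eif2ak2, the interferon-inducible kinase PKR that phosphorylates eIF2, went from 9.46, 11.2 and 14.3 FPKM to 6.96, 6.70 and 3.52 FPKM, 2.04-fold lower (log2 change -0.94, SE 0.24, limma adjusted p = 0.0405). That call was kept without untreated replicate 1 alone, with limma adjusted p from 0.0651 to 0.139 without any other single library, and it was lost on the TPM scale (0.0608) and with no filter on low genes (0.135). The other kinases Eif2ak1, Eif2ak3 and Eif2ak4 had limma adjusted p of 0.743, 0.822 and 0.336.

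Of 16 regulators of the cap complex, 1 rose and 1 fell. Pdcd4, which binds and inhibits the helicase eIF4A, measured 33.7, 30.2 and 31.3 FPKM in untreated and 17.7, 20.3 and 16.0 FPKM in treated samples, 1.76-fold lower (log2 change -0.79, SE 0.12, limma adjusted p = 0.00813, and 0.0537 without untreated replicate 2 or 0.0533 without flavonoids replicate 1). Pabpc4, a poly(A)-binding protein that touches eIF4G, measured 21.5, 22.9 and 24.0 against 36.5, 33.5 and 33.6 FPKM, 1.51-fold higher (limma adjusted p = 0.0145, lost without untreated replicate 2 at 0.0944, flavonoids replicate 1 at 0.0853 or flavonoids replicate 2 at 0.064). In both genes the groups stood clearly apart. Rps6kb1, the S6 kinase that mTOR activates, measured 8.32 ± 1.87 and 4.85 ± 1.42 FPKM (limma adjusted p = 0.0831).

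One of 8 tested elongation factor genes was called. Eef2k, the kinase that stops elongation by phosphorylating eEF2, measured 9.78, 9.67 and 10.5 FPKM in untreated and 17.0, 16.6 and 21.0 FPKM in treated samples, 1.83-fold higher (log2 change 0.80, SE 0.13, limma adjusted p = 0.00846, and 0.0689 without untreated replicate 2). All 8 had positive fitted changes, with a median of 0.31, and Eef1e1 came next at limma adjusted p = 0.145. Of 8 genes around eIF5A hypusination, Srm, which makes the spermidine that hypusine is built from, rose 2.26-fold from 9.99, 10.98 and 8.05 to 19.9, 21.9 and 23.7 FPKM (log2 change 1.10, SE 0.14, limma adjusted p = 0.00431). The call of Srm was kept in all 19 other settings. Dhps and Dohh, the enzymes that carry out the modification, had limma adjusted p of 0.436 and 0.105. None of 6 tested termination and recycling genes passed, with Mcts2 and Denr lowest in p at limma adjusted p of 0.293 and 0.334.

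**Figure D5:**
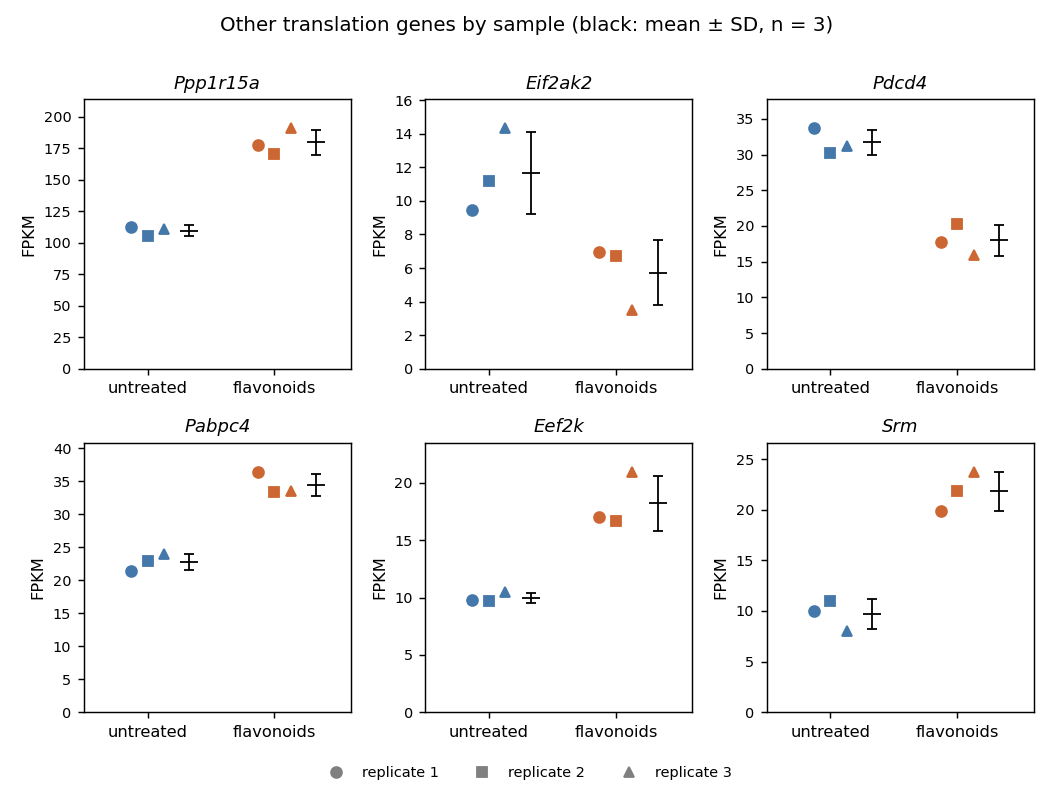
FPKM of 6 called genes around initiation by sample (y axes start at 0, marker shape gives the replicate, black marks the mean ± SD of 3 samples). Ppp1r15a, Pabpc4, Eef2k and Srm are higher and Eif2ak2 and Pdcd4 lower in every treated sample.

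Of 7 transcription factors and stress genes listed for their known action on translation genes, 6 were higher, from a list drawn up with earlier results of these data known. Atf4, the factor made when eIF2 is phosphorylated and a known activator of Eif4ebp1, measured 673, 537 and 449 FPKM in untreated and 903, 859 and 864 FPKM in treated samples (limma adjusted p = 0.0408). Atf4 lost its call without untreated replicate 2 (0.183) or any single treated library (0.113 to 0.156), and with no filter on low genes (0.125). Myc, a factor that binds E-boxes, measured 33.9, 32.0 and 31.9 against 85.1, 81.1 and 76.7 FPKM, 2.48-fold higher (limma adjusted p = 0.00155). Atf5 rose 1.78-fold, Cebpb 1.52-fold, Ddit3 2.87-fold and Trib3 2.80-fold, and Cebpg had limma adjusted p = 0.624. Atf5 lost its call without untreated replicate 2 (0.0866), flavonoids replicate 1 (0.0576) or flavonoids replicate 2 (0.0522), and Cebpb without untreated replicate 2 (0.123) or any single treated library (0.0707 to 0.128), and with no filter on low genes (0.0689).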

How the data were processed

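Total RNA of 3 untreated and 3 flavonoid-treated samples of 3T3-L1 cells was sequenced, and groups were taken from the labels. The authors deposited 1 table of FPKM values per gene and sample. FastQC, HISAT2 and the build mm10 are named in the submitters' processing notes. The counting tool, its strand setting and the gene annotation are unknown, as the sources used here do not give them. Fragments were recovered from the steps between FPKM values, which came out whole for 22235 of 22235 genes above 0 within a tolerance of 0.005, and gave depth and implied gene length. The test was limma 3.58.1 (R 4.3.3) with a variance trend on log2(FPKM + 1) of 11464 genes, those whose mean reached 1 FPKM, and p-values were adjusted by Benjamini-Hochberg. A fold change on that scale understates the change of low genes, and the folds printed are ratios of mean FPKM. Genes were named by role, with all members accounted for, and the other translation genes by their call or lowest p. Members and lists were chosen with earlier results of these data known. The fit was tested on simulated data. Alternatives changed the pseudocount, filter, scaling, variance model, length trend, replicate block and samples, and voom was run on the recovered fragments. Python 3.11.15 with pandas 2.3.3 was used for the rest. Positions, exon bases and exon overlaps are from GENCODE on GRCm38, and the gene models behind the FPKM values may differ from these.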

Additional observations from a re-analysis of the deposited data

How the results depend on the processing

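Over 19 alternatives, 955 of 1000 values of single members kept their side of the threshold, 17 lost the call and 28 gained one. Of the 955, 910 also kept their direction, and 45 values of 16 members, none of them called, changed sign. The count of members higher, 3, became 1 without a filter on low values, 0 with the replicate block, 12 with the length trend removed and 10 with the length trend removed and the block, and it ranged from 0 to 7 when single libraries were left out, with 7 without untreated replicate 1 and 0 without untreated replicate 2 or any treated library. The count of members lower, 0, became 1 with quantile normalization, 1 without a variance trend, 1 with robust variances, 1 with voom, 2 with the length trend removed and 2 with that and the block. Over all genes the 1145 calls became 641 without a filter, 457 with the replicate block, 2510 with the length trend removed and 2018 with both, and 146 to 1709 when single libraries were left out. The 12 calls among other translation genes became 9 without a filter, 8 with the replicate block, 13 on the TPM scale and 14 with quantile normalization. They became 20 with the length trend removed, 20 with that and the block, and 4 to 14 when single libraries were left out. On the TPM scale the split over all genes was 441 higher and 599 lower, against 557 and 588. Deviations of samples with the same number correlated at -0.143, -0.117 and -0.203, and no sample correlated best with its own number. These correlations cannot decide whether samples of the same number belong together, because the untreated libraries also differ in their length slope. The sources used here do not give it either. With the replicate block the limma adjusted p was 0.0586 for Eif4ebp1, 0.0558 for Eif3c and 0.064 for Eif1ad, with the fitted changes as before. The causes of these changes were not tested. With 3 samples per group an exact permutation test cannot give a p below 0.1.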
